A study of Mus musculus with 6 samples.

Results

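The genes described here are subunits of the proteasome and the enzymes that attach ubiquitin to proteins or remove it, measured in mouse brain 10 min after naloxone, an opioid receptor antagonist. They were chosen by symbol: those starting with Psma to Psmg and a digit, with Usp and a digit, or with Ube, Uch, Otu or Herc, where the platform annotation gives a probe 1 symbol. The rule matched 95 genes on 124 probes, and all 95 kept values after the filter on missing values, of 6146 genes measured. Of these, 89 had a value on all 6 arrays and 25 were measured by more than 1 probe. The groups compared were 4: the proteasome core (11 genes), the proteasome cap (17), conjugation (28) and deubiquitination (34). The other 5 carry a matching name and another role. Psmg2 is an assembly chaperone of the core, Psme3ip1 a partner of the activator Psme3, Psmc3ip a protein of meiotic recombination, Usp6nl a GTPase-activating protein and Ube2d-ps a pseudogene.

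On each array, total RNA from brains of 9-week-old males given naloxone carried Cy5 and that from males given saline carried Cy3. In both channels of 3 arrays the mice were NY1DD, which carry a transgene that models sickle cell anemia, and in both channels of the other 3 they were C57BL/6J wild type. The dyes were never swapped, so dye and drug cannot be told apart within a strain, whereas a dye effect common to all arrays cancels in the difference between strains. Values are log2 ratios. Their direction is likely naloxone over saline: the labels give the dyes but not which channel is the numerator, and every sign below turns if it is saline. The labels do not say whether the arrays, or the saline RNA, come from separate animals, so p-values measure the spread between arrays, which may be technical. The titles of C57BL/6J replicates 1 and 2 share a number whose meaning is not stated and that no other array carries. Averaging both into 1 array left 494 features at an unadjusted p under 0.05 in C57BL/6J, against 671, and raised the smallest adjusted p from 0.196 to 0.464 (limma). The number of arrays limits the precision. Ratios carry no level, so the tissue could not be checked against its markers, and fewer cells of a type cannot be told apart from less RNA per cell.

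A protein to be destroyed is tagged with ubiquitin by a relay of an activating enzyme (E1), a conjugating enzyme (E2) and a ligase (E3). The proteasome core is a barrel of alpha rings, which gate the entrance, and beta rings, which hold the proteases. The cap binds the tagged protein, and its ATPases unfold it and feed it into the barrel. Deubiquitinating enzymes take the tag off again, either at the proteasome or before a protein reaches it. In neurons this system turns over proteins at synapses.

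None of the 95 genes passed limma's test at an adjusted p of 0.05 in NY1DD, in C57BL/6J, in the difference between strains or in the average of both, nor did any of the 9685 features tested (percent called 0 in each). At an unadjusted p under 0.05 in NY1DD, 4 members were positive (4.21%; 3.46% of all features) and 1 was negative (1.05%; 4.89% of all features). The 4 were Psmc5, Psmb10, Ube2g2 and Usp34, and the 1 was Usp16. In C57BL/6J, 2 were positive (2.11%; 1.76% of all features), Usp1 and Usp33, and 4 were negative (4.21%; 5.17% of all features), Herc4, Usp16, Usp6nl and Ube2d-ps. In the difference between strains, 3 were higher in NY1DD (3.16%; 2.75% of all features), Herc4, Psmc5 and Usp39, and 1 was lower (1.05%; 1.76% of all features), Otud7a. Of the 5 NY1DD results, 3, those of Ube2g2, Usp34 and Usp16, no longer had a p under 0.05 with the median of each plate well position subtracted. The same correction brought Psmc3, Otud7a, Psme3 and Ube2q1 under 0.05 in NY1DD (limma unadjusted p = 0.015, 0.0206, 0.0233 and 0.03). In 4 of the 5 NY1DD results first named, all but Psmc5, the p passed 0.05 when a single array was left out. The values of the strains did not overlap for 8 members with NY1DD higher (8.42%; 5.62% of all features) and for 2 with NY1DD lower (2.11%; 4.58% of all features). For 2 members every NY1DD array was positive and every C57BL/6J array negative (2.11%; 1.31% of all features), Herc4 and Psme3, and for 1 the reverse held (1.05%; 1.09% of all features), Otud7a. Within strains, 15 members were positive on all measured NY1DD arrays (15.8%; 14.3% of all features) and 10 negative (10.5%; 15.4%). In C57BL/6J 17 were positive on all (17.9%; 14.4% of all features) and 13 negative (13.7%; 17.3%).

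Of those 8, 4 belong to the proteasome core and cap groups (4 of 28, 14.3%; 5.62% of all features): the subunits Psma7 and Psmc5, the assembly chaperone Psmd10 and the activator Psme3. Psmd10 is counted in the cap by its symbol, whereas the assembly chaperone Psmg2, lower in NY1DD without overlap, is outside the groups. The sequences around the starts of these 4 genes are shown because Psmc5 has the largest NY1DD value of the core and cap groups. The others share its pattern of strains that do not overlap. The lines give RefSeq promoter windows (build GRCm38.p6) of 300 bases that span the start, 5′ to 3′. Capitals mark CCAAT or its reverse complement.
Psma7 (chr2:180042415-180042714, minus strand): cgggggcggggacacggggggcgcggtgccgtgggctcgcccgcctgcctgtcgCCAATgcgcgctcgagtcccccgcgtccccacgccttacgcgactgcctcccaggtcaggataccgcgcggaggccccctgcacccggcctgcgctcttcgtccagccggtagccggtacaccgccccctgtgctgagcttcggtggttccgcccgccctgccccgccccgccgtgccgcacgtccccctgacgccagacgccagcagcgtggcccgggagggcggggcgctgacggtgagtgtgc
Psmc5 (chr11:106255935-106256234, plus strand): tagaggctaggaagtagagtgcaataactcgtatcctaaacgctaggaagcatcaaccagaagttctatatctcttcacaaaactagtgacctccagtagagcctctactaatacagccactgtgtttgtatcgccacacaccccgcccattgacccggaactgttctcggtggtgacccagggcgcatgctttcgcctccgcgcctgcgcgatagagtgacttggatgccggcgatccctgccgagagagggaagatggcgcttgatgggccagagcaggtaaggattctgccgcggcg
Psmd10 (chrX:140956662-140956961, minus strand): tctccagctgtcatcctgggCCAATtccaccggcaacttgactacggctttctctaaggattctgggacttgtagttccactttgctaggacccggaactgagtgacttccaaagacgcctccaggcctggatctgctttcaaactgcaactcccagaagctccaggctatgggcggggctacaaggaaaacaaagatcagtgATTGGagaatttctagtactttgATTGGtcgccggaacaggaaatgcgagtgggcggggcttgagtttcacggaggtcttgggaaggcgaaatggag
Psme3 (chr11:101315963-101316262, plus strand): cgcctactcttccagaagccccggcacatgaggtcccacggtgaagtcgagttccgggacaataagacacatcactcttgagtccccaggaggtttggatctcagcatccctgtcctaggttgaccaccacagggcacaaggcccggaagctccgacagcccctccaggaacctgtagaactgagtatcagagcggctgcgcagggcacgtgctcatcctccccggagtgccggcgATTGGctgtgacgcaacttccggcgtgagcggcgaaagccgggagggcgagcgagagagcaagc
The antioxidant response element, which the proteasome regulators NFE2L1 and NFE2L2 bind, was searched as TGACNNNGC on both strands. None of the 4 windows held it. Among the 26 windows of 24 measured proteasome core and cap genes, 3 held it (11.5%; 12.4% of all 32841 windows), those of Psmb5, Psmc6 and Psmd12. The share was higher in the other groups, with 8 of 31 conjugation windows (25.8%) and 8 of 26 deubiquitination windows (30.8%). Over all members it was 20 of 89 windows (22.5%). These shares were not tested. CCAAT, on both strands, occurred in 9 of the 26 windows (34.6%; 37.4% of all windows). It occurred in 3 of the 4 shown and not in that of Psmc5. GGGCGG, the GC box, occurred in 16 of the 26 (61.5%; 35.7% of all windows). By group these were 4 of 10 core windows (40%) and 12 of 16 cap windows (75%). The GC box was also in 26 of 31 conjugation windows (83.9%) and 16 of 26 deubiquitination windows (61.5%), so it was not particular to the proteasome. A window was found for 75 of the 95 members.

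The proteasome core leaned positive in both strains, by little. In NY1DD 7 of its 11 genes had a positive mean, with a median log2 ratio of 0.09, and in C57BL/6J 8 of 11, with a median of 0.07. The medians over all 6146 genes were -0.01 and 0.00. Replicates 1 to 3 had core medians of 0.27, -0.13 and 0.23 in NY1DD and of -0.17, 0.20 and 0.05 in C57BL/6J. The arrays within a strain differed more than the strains did: the means of these medians were 0.12 (SD 0.22, n = 3) and 0.02 (SD 0.18, n = 3). Without NY1DD replicate 2 the NY1DD median of the core was 0.35, and without replicate 1 it was 0.05. The core genes' probes sit in plate wells whose medians averaged -0.14 on NY1DD replicate 2 and between -0.03 and 0.02 on the other 5 arrays. With the median of each well position subtracted, 9 of 11 core genes were positive in NY1DD and their median was 0.17.

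**Figure D1:**
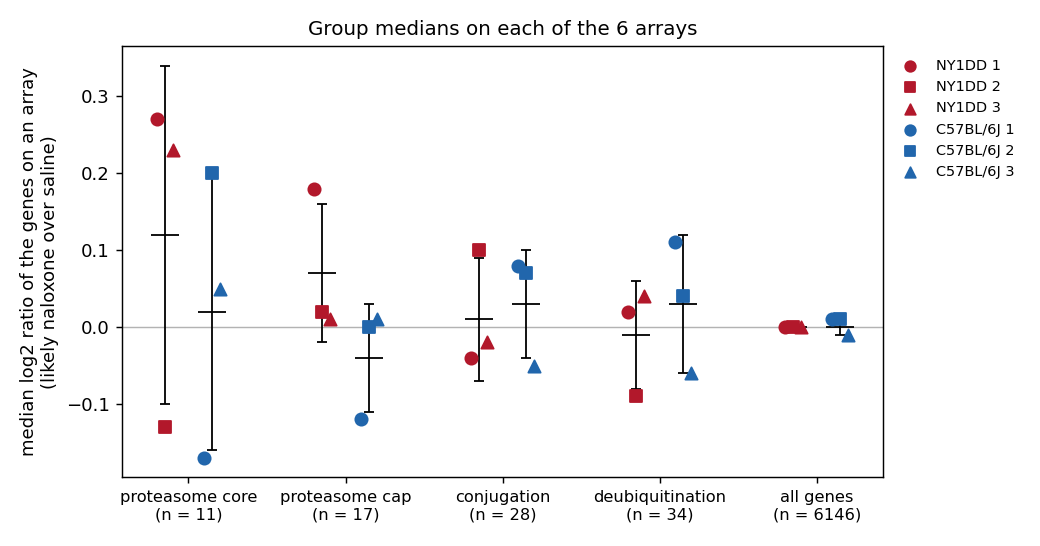
Median log2 ratio (vertical axis, likely naloxone over saline) of the genes of each group on each of the 6 arrays, with the mean and SD of the 3 arrays of a strain as black bars. The core runs from -0.13 to 0.27 over the NY1DD arrays and from -0.17 to 0.20 over the C57BL/6J arrays, while the median of all genes stays between -0.01 and 0.01.

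Within the core, all 5 beta subunits measured had positive means in both strains (median 0.25 in NY1DD and 0.11 in C57BL/6J), against 2 of 6 alpha subunits in NY1DD (median -0.05) and 3 of 6 in C57BL/6J (median -0.03). By array, all 5 beta subunits were positive on NY1DD replicates 1 and 3 and on C57BL/6J replicate 2. They were split on C57BL/6J replicates 1 (3 of 5) and 3 (2 of 5), and 1 of 5 was positive on NY1DD replicate 2. On that array the wells of Psmb2 and Psmb7 had medians of -0.47 and -0.64, and those of Psmb4, Psmb5 and Psmb10 from 0.11 to 0.17. Of the alpha subunits, 5 of 6 were positive on NY1DD replicate 1 and 1 to 4 of 6 on each other array. The rings were not tested against each other. With the well medians subtracted, 4 of 6 alpha subunits were positive in NY1DD and Psmb7 had -0.02 in C57BL/6J.

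Psmb4, a structural beta subunit, had 0.63, -0.14 and 0.67 in NY1DD and 0.14, 0.36 and 0.08 in C57BL/6J. NY1DD replicates 1 and 3 were higher than every C57BL/6J array and replicate 2 was lower than all of them (NY1DD mean 0.38, SE 0.19). Psmb2, another structural subunit, had the same shape, with 0.52, -0.13 and 0.37 in NY1DD and -0.12, 0.29 and 0.10 in C57BL/6J. Of the proteases, Psmb5, with chymotrypsin-like activity, had 0.17, -0.06 and 0.16 in NY1DD and 0.19, 0.20 and -0.04 in C57BL/6J. Its strain means, 0.09 (SE 0.13) and 0.11 (SE 0.13), were alike. Psmb7, with trypsin-like activity, had 0.45, -0.63 and 0.24 in NY1DD and 0.15, 0.31 and -0.02 in C57BL/6J, so that the NY1DD arrays spanned all of the C57BL/6J values. Psmb10 takes the place of Psmb7 in the immunoproteasome, the form induced by interferon. It was positive on all 3 NY1DD arrays, with 0.57, 0.42 and 0.23, and had -0.24, 0.41 and -0.08 in C57BL/6J. Its NY1DD mean was 0.41 (SE 0.17, n = 3, limma unadjusted p = 0.0456, adjusted p = 0.588) and its difference between strains 0.38 (SE 0.24).

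Of the alpha subunits, Psma7 alone had strains that did not overlap. It had 0.27, 0.22 and 0.47 in NY1DD and -0.26, 0.06 and -0.08 in C57BL/6J, a difference of 0.41 (SE 0.19, limma unadjusted p = 0.0702, adjusted p = 0.969). Psma4 varied most, with 0.27, -1.28 and 0.60 in NY1DD and -0.37, -0.11 and 0.05 in C57BL/6J. The value of -1.28 on NY1DD replicate 2 sets its mean of -0.13 (SE 0.34). The well of the Psma4 probe had a median of -0.85 on that array. With the well medians subtracted the NY1DD mean of Psma4 was 0.17. Psma1, Psma2, Psma5 and Psma6 had differences between strains from -0.12 to 0.02, each within its SE.

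**Figure D2:**
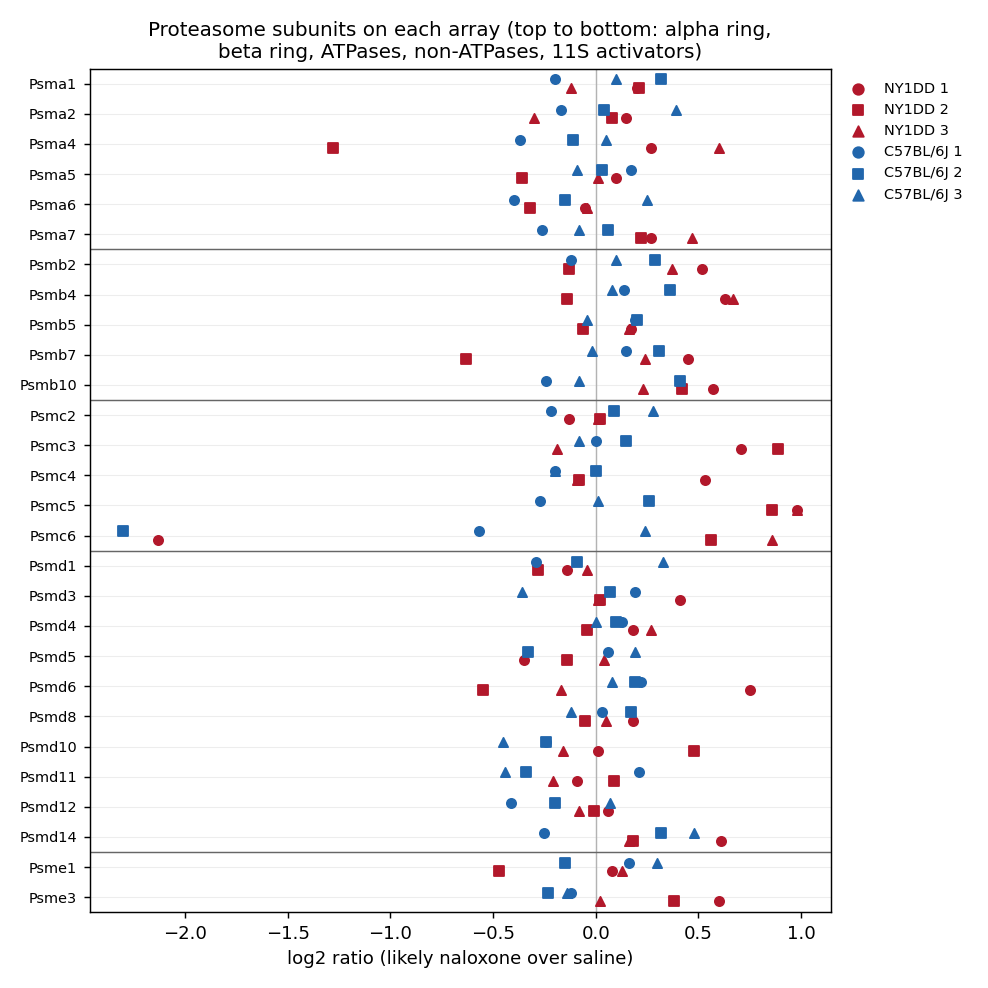
Log2 ratio (horizontal axis) of the 28 genes of the proteasome core and cap groups, 1 row a gene, on the 3 NY1DD arrays (red) and the 3 C57BL/6J arrays (blue), ordered by part of the complex. Psmc5 lies between 0.86 and 0.98 on the NY1DD arrays and between -0.27 and 0.26 on the C57BL/6J arrays, and Psmc6 spreads from -2.30 to 0.86.

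The cap had 10 of 17 positive means in NY1DD (median 0.06) and 8 of 17 in C57BL/6J (median -0.01). In the difference between strains 12 of 17 were higher in NY1DD, with a median of 0.14, against 2929 of all 6146 genes and a median of -0.02. Its array medians were 0.18, 0.02 and 0.01 in NY1DD and -0.12, 0.00 and 0.01 in C57BL/6J, so that NY1DD replicate 1 and C57BL/6J replicate 1 stood apart and the other 4 arrays lay within 0.02 of each other. Without NY1DD replicate 1 the median difference was 0.05, and without C57BL/6J replicate 3 it was 0.04. With the well medians subtracted, the cap's NY1DD median was 0.18, with 11 of 17 positive. Some marker lists of brain cell types also moved between the strains. The 4 endothelium markers had array medians of 0.23, 0.19 and 0.68 in NY1DD and between -0.02 and 0.03 in C57BL/6J, without overlap, though only 2 of the 4 genes were higher in NY1DD. The 5 astrocyte markers had -0.13, -0.10 and -0.21 against 0.01, 0.03 and 0.16, also without overlap, and 0 of the 5 were higher in NY1DD. The 7 neuron markers overlapped, with 0.18, 0.03 and 0.07 in NY1DD and between -0.08 and 0.08 in C57BL/6J. The array medians of the 4 oligodendrocyte and the 2 microglia markers overlapped as well. The part of these cell types in the result was not tested.

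The ATPases form the base of the cap. Psmc5 had 0.98, 0.86 and 0.98 in NY1DD and -0.27, 0.26 and 0.01 in C57BL/6J. All 3 NY1DD arrays lay close together and far above the C57BL/6J arrays, which lay on both sides of 0. Its difference between strains was 0.94 (SE 0.21, 1.91-fold, limma unadjusted p = 0.00261, adjusted p = 0.969). Its NY1DD mean had the smallest adjusted p of the 95 members in that strain, 0.368, and rests on 1 probe. Leaving out each array in turn gave NY1DD means from 0.92 to 0.98, and subtracting the well medians gave 0.97.

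Of the 5 ATPases measured, 4 were higher in NY1DD (median difference 0.45), against 7 of 10 non-ATPases (median 0.09). The array medians of the ATPases overlapped between the strains, and this split was not tested. The other ATPases did not have the even NY1DD values of Psmc5, though the 6 form 1 ring (Psmc1 was not analysed here). Psmc3 had 0.71 and 0.89 on NY1DD replicates 1 and 2, -0.19 on replicate 3, and from -0.08 to 0.15 in C57BL/6J. Psmc4 had 0.53 on NY1DD replicate 1, -0.08 and -0.09 on the other NY1DD arrays, and -0.20, 0.00 and -0.20 in C57BL/6J. Psmc2, measured by 2 probes, stayed between -0.13 and 0.02 in NY1DD and between -0.22 and 0.28 in C57BL/6J. Psmc6 had -2.13, 0.56 and 0.86 in NY1DD and -0.57, -2.30 and 0.24 in C57BL/6J. One array in each strain lay far below the others, and neither mean (-0.24, SE 0.65, and -0.87, SE 0.65) could be told from 0.

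Of the non-ATPase subunits, Psmd4, a ubiquitin receptor, had 0.18, -0.04 and 0.27 in NY1DD and 0.13, 0.10 and 0.00 in C57BL/6J. Psmd1, the scaffold of the base, had -0.14, -0.28 and -0.04 in NY1DD and -0.29, -0.09 and 0.33 in C57BL/6J. Both showed strains that overlapped. Psmd14, the deubiquitinase of the lid, was positive on 5 of 6 arrays, with 0.61, 0.18 and 0.16 in NY1DD and -0.25, 0.32 and 0.48 in C57BL/6J (average of the strains 0.25, limma unadjusted p = 0.0976). The other lid subunits Psmd3, Psmd6, Psmd8, Psmd11 and Psmd12 had NY1DD means from -0.07 to 0.15 and C57BL/6J means from -0.19 to 0.16. The largest single value among them was 0.75, for Psmd6 on NY1DD replicate 1, and the lowest was -0.55, for Psmd6 on NY1DD replicate 2. The well of the Psmd6 probe had medians of 0.15 and -0.97 on these arrays.

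Psmd10 and Psmd5 are chaperones that help assemble the base. Psmd10 had 0.01, 0.48 and -0.16 in NY1DD and -0.24, -0.24 and -0.45 in C57BL/6J, a difference of 0.42 (SE 0.23, limma unadjusted p = 0.109). Its 2 probes gave differences of 0.13 and 0.71. On the probe with 0.13 the strains overlapped, with -0.11, 0.32 and -0.11 in NY1DD and -0.04, -0.19 and -0.06 in C57BL/6J. Psmd5 had -0.35, -0.14 and 0.04 in NY1DD and 0.06, -0.33 and 0.19 in C57BL/6J, with overlap. Psme3 and Psme1 belong to the 11S activators, which open the core without ATP. Psme3, which forms the nuclear activator, had 0.60, 0.38 and 0.02 in NY1DD and -0.12, -0.23 and -0.14 in C57BL/6J. The strains lay on opposite sides of 0, with a difference of 0.50 (SE 0.21, limma unadjusted p = 0.0527, adjusted p = 0.969). Psme1, part of the interferon-induced activator, had 0.08, -0.47 and 0.13 in NY1DD and 0.16, -0.15 and 0.30 in C57BL/6J, with overlap. The well of the Psme1 probe had a median of -0.85 on NY1DD replicate 2. The assembly chaperone Psmg2 had 0.08, -0.02 and 0.05 in NY1DD and 0.09, 0.69 and 0.12 in C57BL/6J, lower in NY1DD without overlap, with 0.08 and 0.09 as the nearest values.

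The conjugation enzymes were balanced around 0. In each strain 16 of 28 had a positive mean, with a median of 0.02 (in C57BL/6J 13 of 28 and -0.01 with replicates 1 and 2 averaged), and in the difference 17 of 28 were higher in NY1DD (median 0.03). Their array medians ran from -0.05 to 0.10. The 22 E2 enzymes, with medians of 0.01 in NY1DD and 0.03 in C57BL/6J, made up most of the group.

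Ube2g2, an E2 of the disposal of misfolded proteins from the endoplasmic reticulum, had 0.52, 0.30 and 0.26 in NY1DD and -0.14, 0.22 and 0.01 in C57BL/6J. Every NY1DD array was above every C57BL/6J array, with a NY1DD mean of 0.36 (SE 0.14, limma unadjusted p = 0.0365, adjusted p = 0.579), or 0.25 with the well medians subtracted (limma unadjusted p = 0.109). Ube2g1, its paralogue, had 0.30, -0.30 and -0.09 in NY1DD and 0.27, 0.39 and 0.30 in C57BL/6J, with overlap. The well of the Ube2g1 probe had a median of -0.87 on NY1DD replicate 2. Ube2j2, also an enzyme of that membrane, had -0.21, 0.87 and -0.55 in NY1DD and -0.03, -0.13 and -0.51 in C57BL/6J.

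Ube2k, which builds ubiquitin chains, was positive on 5 of 6 arrays. It had 0.61, 0.04 and 0.55 in NY1DD and -0.06, 0.33 and 0.53 in C57BL/6J, an average of 0.33 (limma unadjusted p = 0.0345, adjusted p = 0.412). One of its 2 probes averaged 0.49 in NY1DD and 0.37 in C57BL/6J, the other 0.31 and 0.16. The average comparison does not cancel a dye effect. At an unadjusted p under 0.05 it called 3 members positive (3.16%; 3.4% of all features) and 4 negative (4.21%; 7.37% of all features).

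The Ube2d enzymes start chains with many ligases. Ube2d3, on 3 probes, had -0.02, -0.38 and 0.21 in NY1DD and 0.20, 0.21 and 0.24 in C57BL/6J. Ube2d2a stayed between -0.01 and 0.23 on the 6 arrays, on 2 of its 3 probes. Ube2d1 had -0.05, 0.48 and 0.44 in NY1DD and -0.04, -0.13 and 0.08 in C57BL/6J. None of the 3 had strains that did not overlap. The pseudogene Ube2d-ps had -1.41, 0.15 and -0.43 in NY1DD and -1.16, -0.77 and -0.95 in C57BL/6J; a cDNA probe for a pseudogene may also bind its parent transcripts, and this was not tested.

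Ube2v1 and Ube2v2 are inactive partners in building chains used for signalling. Ube2v2 had the lowest difference between strains of the conjugation genes, -0.58 (SE 0.35), from 0.09, -0.99 and 0.22 in NY1DD and 0.30, 0.15 and 0.61 in C57BL/6J. Its 2 probes gave -0.25 and -0.92, and both were near -1 on NY1DD replicate 2 (-0.97 and -1.01). Ube2v1 went the other way, 0.57 (SE 0.47), with 1.28 on NY1DD replicate 1 and a value at the lower limit, treated as missing, on C57BL/6J replicate 2. With that value kept the difference was 2.75, and it was 0.15 when NY1DD replicate 1 was left out and 0.21 when C57BL/6J replicate 3 was. Ube2q1 was the most even negative gene in NY1DD, with -0.37, -0.39 and -0.40 (mean -0.39, SE 0.18, limma unadjusted p = 0.0648), against 0.32, -0.52 and -0.04 in C57BL/6J. The widest C57BL/6J spreads among the E2 enzymes were those of Ube2ql1, from -0.86 to 1.28, and Ube2e3, from -0.77 to 1.17. Ube2w had 0.78 on NY1DD replicate 2 and between -0.41 and 0.11 on the other arrays. Ube2f, an E2 of the ubiquitin-like protein NEDD8, stayed between -0.15 and 0.07 on all 6 arrays.

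Among the ligases, Herc4 had the largest difference between strains of the 95 members. It had 0.69, 0.15 and 0.24 in NY1DD and -0.56, -1.41 and -1.99 in C57BL/6J. The strains lay on opposite sides of 0, and the spread was wider in C57BL/6J (SD 0.72) than in NY1DD (SD 0.29). The difference was 1.68 (SE 0.38, 3.21-fold, limma unadjusted p = 0.00281, adjusted p = 0.969), on 1 probe, and came mostly from the C57BL/6J mean of -1.32 (SE 0.27, limma adjusted p = 0.196). Leaving out single arrays moved the difference between 1.35 and 2.06. Herc2, on 2 probes, had -0.51, -0.12 and -0.06 in NY1DD and 0.27, 0.11 and -0.23 in C57BL/6J. Herc6 had -0.23, 0.71 and -0.40 in NY1DD and -0.48, -0.03 and -0.28 in C57BL/6J. Neither resembled Herc4. Ube3b had 0.77, 0.17 and -0.26 in NY1DD and 0.13, -0.29 and -0.40 in C57BL/6J, and Ube3c stayed between -0.15 and 0.26. Ube4b, which extends chains, had -1.23 on NY1DD replicate 1 and between -0.18 and 0.36 on the other 5 arrays; of its 2 probes, 1 gave -1.97 and the other -0.48 on that array.

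**Figure D3:**
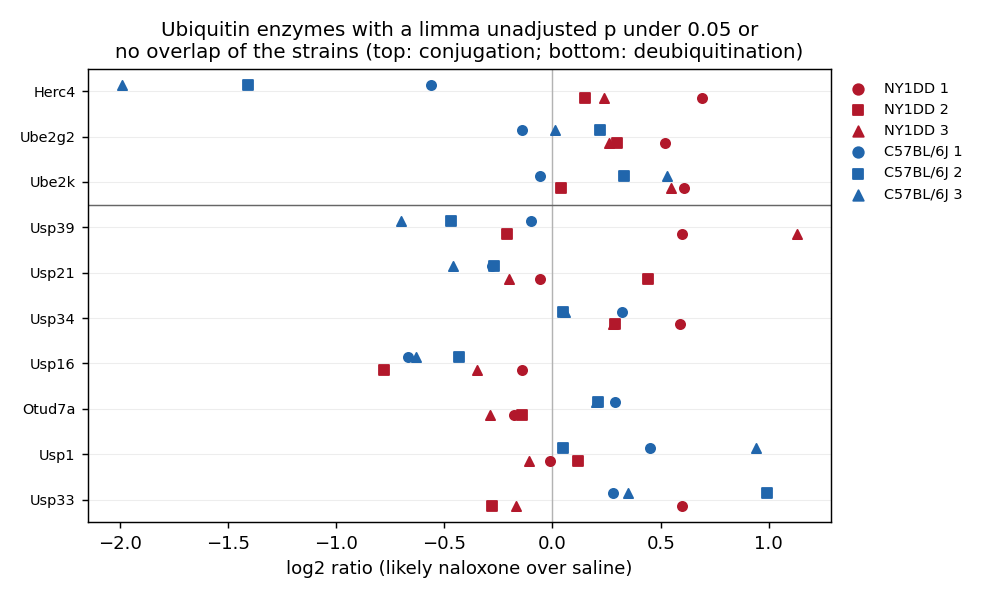
Log2 ratio (horizontal axis) of the 10 ubiquitin enzymes that had a limma unadjusted p under 0.05 in any comparison or strains that did not overlap, on the NY1DD arrays (red) and C57BL/6J arrays (blue). Herc4 lies between 0.15 and 0.69 in NY1DD and between -1.99 and -0.56 in C57BL/6J, and Usp16 lies below 0 on all 6 arrays.

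The deubiquitinating enzymes had 19 of 34 positive means in NY1DD (median 0.02) and 18 of 34 in C57BL/6J (median 0.05). In the difference, 18 of 34 were higher in NY1DD, with a median of 0.01. The array medians of the strains overlapped, from -0.09 to 0.04 in NY1DD and from -0.06 to 0.11 in C57BL/6J. Without C57BL/6J replicate 1 the C57BL/6J median turned to -0.05.

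Usp16, which removes ubiquitin from histone H2A, was below 0 on all 6 arrays, with -0.14, -0.78 and -0.35 in NY1DD and -0.67, -0.43 and -0.63 in C57BL/6J. Its strain means were -0.42 (SE 0.16) and -0.57 (SE 0.16), and the average was -0.50 (limma unadjusted p = 0.00315, adjusted p = 0.188). Its probe lies in plate column 12, in a well whose median was -0.37 on NY1DD replicate 2 and -0.18 on C57BL/6J replicate 2. With the well medians subtracted its NY1DD mean was -0.24 (limma unadjusted p = 0.136) and its C57BL/6J mean -0.51. Usp34 was above 0 on all 6 arrays, with 0.59, 0.29 and 0.28 in NY1DD and 0.32, 0.05 and 0.06 in C57BL/6J. Its NY1DD mean was 0.38 (SE 0.14, limma unadjusted p = 0.0284, adjusted p = 0.579), or 0.24 with the well medians subtracted (limma unadjusted p = 0.0785). Of the 95 members, 1 was positive on all measured arrays (1.05%; 2.68% of all features), Usp34, and 2 were negative on all (2.11%; 4.69% of all features), Usp16 and Otud5. Otud5 had -0.63, -0.14 and -0.05 in NY1DD and -0.04, -0.39 and -0.22 in C57BL/6J.

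Otud7a had small and even values of opposite sign in the strains, -0.18, -0.14 and -0.29 in NY1DD and 0.29, 0.21 and 0.20 in C57BL/6J. The difference was -0.44 (SE 0.18, limma unadjusted p = 0.0412, adjusted p = 0.969), and -0.56 with the well medians subtracted. Its paralogue Otud7b had 0.01, -0.07 and 0.09 in NY1DD and 0.21, -0.22 and -0.68 in C57BL/6J. On NY1DD replicate 1, 1 of the 2 Otud7b probes was at the lower limit, treated as missing. The Otud7b difference ran from -0.87 to 0.36 over the alternatives that kept all arrays. On NY1DD replicate 3 the 2 probes had 0.42 and -0.23. Usp39, which lacks protease activity and works in splicing, had 0.60, -0.21 and 1.13 in NY1DD and -0.10, -0.47 and -0.70 in C57BL/6J. All but 1 NY1DD array were above the C57BL/6J arrays, with a difference of 0.93 (SE 0.36, limma unadjusted p = 0.0368, adjusted p = 0.969). With the well medians subtracted the Usp39 difference was 0.78 (limma unadjusted p = 0.0588). Usp21 had -0.06, 0.44 and -0.20 in NY1DD and -0.28, -0.27 and -0.46 in C57BL/6J, without overlap (difference 0.40, SE 0.23, limma unadjusted p = 0.126).

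Usp1 and Usp33 were positive on every C57BL/6J array. Usp1, which acts in DNA repair, had 0.45, 0.05 and 0.94 there (mean 0.48, SE 0.18, limma unadjusted p = 0.0346, adjusted p = 0.654) and -0.01, 0.12 and -0.11 in NY1DD. Usp33 had 0.28, 0.99 and 0.35 in C57BL/6J (mean 0.54, SE 0.22, limma unadjusted p = 0.0458, adjusted p = 0.712) and 0.60, -0.28 and -0.17 in NY1DD. Its 2 probes disagreed, with C57BL/6J means of 0.03 and 1.05, and 1 of them had 2.44 on C57BL/6J replicate 2. Otud4 had the lowest difference of the group, -0.95 (SE 0.53), which rests on 1.72 on C57BL/6J replicate 1 and on 5 arrays.

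Uchl1, an abundant deubiquitinase of neurons, had 0.76, -0.15 and 0.16 in NY1DD and 0.23, -0.23 and -0.42 in C57BL/6J over 3 probes, with overlap. The probes ranged from -0.38 to 1.38 over the NY1DD arrays. Uchl5, which works on the proteasome cap, had -0.14 and 0.93 on NY1DD replicates 1 and 2, a value at the lower limit, treated as missing, on replicate 3, and 0.82, 0.12 and -1.52 in C57BL/6J. Usp7, which stabilises Mdm2, stayed between -0.17 and 0.21 on all 6 arrays. Usp9x had -0.17, 0.14 and -0.32 in NY1DD and -0.10, -0.12 and 0.97 in C57BL/6J. Usp5, which recycles free chains, had 0.47, -0.42 and 0.49 in NY1DD and 0.02, 0.32 and 0.14 in C57BL/6J. Otub1 had -0.31, 0.64 and 0.38 in NY1DD and 0.29, 0.45 and -0.07 in C57BL/6J. In each of these the strains overlapped. Of the remaining genes at the ends of the group, Usp11 had -0.88 and Usp48 -0.76 on NY1DD replicate 1, where Usp19 had 0.84, and Usp45, on 4 arrays, had 1.77 on C57BL/6J replicate 1.

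**Figure D4:**
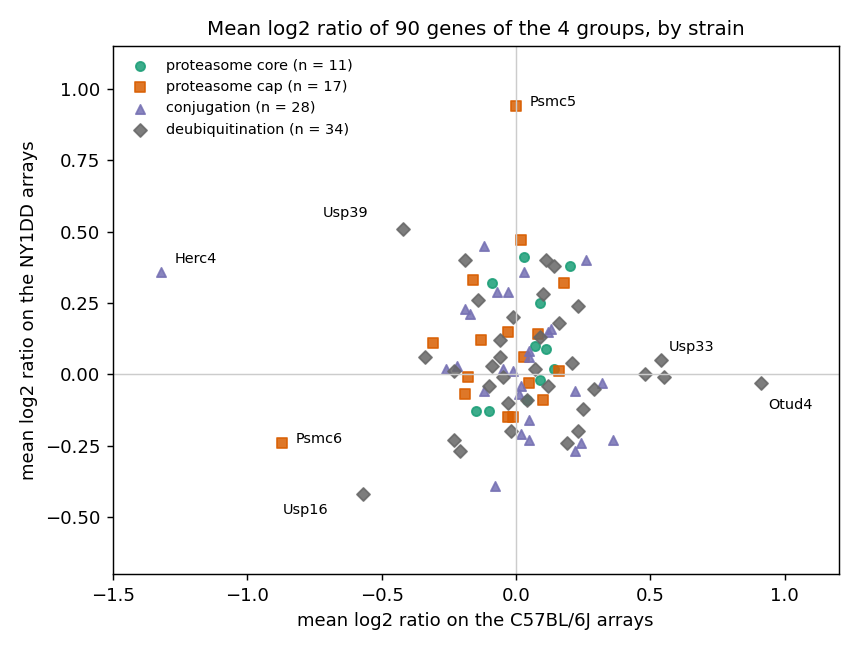
Mean log2 ratio on the NY1DD arrays (vertical axis) against that on the C57BL/6J arrays (horizontal axis) for the 90 genes of the 4 groups. Psmc5 stands at 0.94 and 0.00, Herc4 at 0.36 and -1.32, and Usp16 at -0.42 and -0.57.

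How widely single values of a group spread changed from array to array. On the C57BL/6J arrays, 0 of the 11 core genes passed 1.5-fold in either direction on any array, against 8.58%, 10.0% and 14.3% of all genes. For the deubiquitinating enzymes these shares were 17.6%, 9.09% and 18.2%. On NY1DD replicate 1, 6 of 17 cap genes (35.3%) passed 1.5-fold, against 21.2% of all genes. Other arrays went the other way. On NY1DD replicate 2 the cap had 2 of 17 (11.8%), against 19.1% of all genes. On NY1DD replicate 3 the core had 2 of 11 (18.2%) and the deubiquitinating enzymes 1 of 33 (3.03%), against 11.1% of all genes. These shares rest on few genes and were not tested. The median SD between arrays of a member was 0.29 in NY1DD and 0.22 in C57BL/6J, against 0.31 and 0.24 for all genes. Of the 25 members with several probes, 12 had probes of one sign in NY1DD and 14 in the difference between strains. The widest disagreement in the difference was that of Usp36, whose 2 probes gave -0.58 and 0.65.

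Of the other genes of the pathway, 0 passed at an adjusted p of 0.05 (limma). Of the 5 COP9 signalosome subunits, relatives of the cap's lid, 4 were higher in NY1DD (median difference 0.17). Shuttles and regulators of the proteasome were higher in NY1DD for 5 of 16 (median -0.05), cullin ligase subunits for 11 of 19 (median 0.06), and other ligases for 9 of 23 (median -0.07). The SUMO and NEDD8 pathway had 5 of 9 higher (median 0.00). At an unadjusted p under 0.05 in the difference, the cullin list had 1 positive and 2 negative of 19 genes, the SUMO and NEDD8 list 1 negative of 9, and the other 3 lists 0. Over all features the shares were 2.75% positive and 1.76% negative. Pias3, a SUMO ligase, had -0.85, -1.36 and -0.64 in NY1DD and 0.10, -0.24 and -0.47 in C57BL/6J, without overlap (difference -0.75, SE 0.26, limma unadjusted p = 0.0252, adjusted p = 0.969). Uba3, the E1 of NEDD8, had 4.22 on NY1DD replicate 3 and between -0.53 and 1.43 on the other 5 arrays.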

How the data were processed

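The authors deposited 1 table of natural log ratios of the Cy5 and Cy3 channels, 1 value a spot and array, on BMAP cDNA arrays. That the values are natural logs was read from their lower limit, which equals the natural log of 0.01, and which channel is the numerator is not stated. How background was corrected and ratios were normalized is not stated in the labels, and signal over background is unknown.

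Of 11532 spots, 30 control spots were left out. The 293 values at the lower limit were treated as missing, the rest turned into log2, probes with values on at least 2 arrays of each strain kept, and each array centred on its median. Averaging the probes that share 1 symbol gave 9685 features, 6146 of them genes. Strain means, their difference and their average were tested with limma 3.58.1 in R 4.3.3 (4 residual and 3.13 prior degrees of freedom), with Benjamini-Hochberg adjustment over the 9685 features. On data simulated for the NY1DD comparison over 9685 features, 48 of 100 genes changed by a log2 ratio of 1 and 93 of 100 changed by 2 were recovered.

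Members, gene lists and tests were chosen with earlier results of these data known. Genes named were the 4 highest and 4 lowest of each group in any comparison, those with an unadjusted p under 0.05 or strains that did not overlap, and set key subunits and enzymes. Psma1, Psmd3, Psmd8, Psmc3ip, Psme3ip1, Ube2f, Ube3c, Usp5 and Usp36 are named outside that rule, after their values were seen. Alternatives were the lower limit, centring, scaling, filters, single probes, well position, a replicate block, a robust fit, C57BL/6J replicates 1 and 2 averaged, and each array left out. Well positions and plate columns were read from the endings of the probe names, and probes whose names share an ending were pooled.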

Additional observations from a re-analysis of the deposited data

Results flagged for a closer look

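In Herc4, Otud7a and Psme3, the strains lay apart with all NY1DD arrays on one side of 0 and all C57BL/6J arrays on the other. Among all features, 1.31% had NY1DD positive and C57BL/6J negative, and 1.09% the reverse. The difference between strains was 1.68 for Herc4 (limma unadjusted p = 0.00281), -0.44 for Otud7a (limma unadjusted p = 0.0412) and 0.50 for Psme3 (limma unadjusted p = 0.0527). The adjusted p was 0.969 for each. With the well medians subtracted, the limma unadjusted p was 0.00394 for Herc4, 0.00867 for Otud7a and 0.034 for Psme3. With single arrays left out, the unadjusted p passed 0.05 in 5 of 6 fits for Otud7a and in 0 of 6 for Herc4. In those fits the difference ran from -0.47 to -0.39 for Otud7a and from 1.35 to 2.06 for Herc4.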

How the results depend on the processing

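The number of features past an adjusted p of 0.05 stayed at 0 under all alternatives run. Of 272 group medians, 267 moved by no more than the SD of the array medians within a strain. Some of them could not move: a robust fit keeps every mean, and leaving out an array keeps the other strain's median. The SD can also exceed a median (0.22 against 0.09 for the core in NY1DD), so a median counted here may still turn sign. The medians that moved further were these. The cap's median in NY1DD was 0.18 with well position correction (0.06 as reported). Leaving out single arrays moved the cap's median difference between strains from 0.04 to 0.19, the core's NY1DD median from 0.05 to 0.35, and the C57BL/6J median of the deubiquitinating enzymes from -0.05 to 0.11. The cause was not tested. The labels do not say whether the replicate numbers pair the arrays. Deviations of same-numbered arrays correlated at -0.0666, 0.0508 and 0.0197. This cannot settle it, since even arrays of the same strain correlated at only 0.0194 to 0.191. With the replicate number as a block the count of features stayed at 0, the core's NY1DD median was 0.09 and the cap's median difference 0.14. Psmc5 in NY1DD ran from 0.87 to 0.98 over the alternatives, with adjusted p from 0.318 to 0.643 (limma). Of the members with an unadjusted p under 0.05, the p passed 0.05 under at least 1 alternative that kept all arrays for 4 of 5 in NY1DD, 2 of 6 in C57BL/6J, 2 of 4 in the difference between strains and 2 of 7 in the average. Leaving out an array did so for 4, 4, 2 and 3 of them. Averaging C57BL/6J replicates 1 and 2 did so for Otud7a and Usp39 in the difference, Usp33 in C57BL/6J and Usp34 in the average. Members whose p came under 0.05 only under an alternative are not in these counts.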
